A study of Mus musculus with 4 samples.

Results

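Copying the genome once in each cell cycle depends on a set of proteins that mark origins, open the double helix and build new strands, and the 48 mouse genes described here code for the core of that set. They were taken as a list of named subunits and factors, from the origin recognition complex to chromatin assembly factor 1, and a gene entered with the probe whose name on the array was its symbol, or with the brightest such probe where there were several. Of the 48 genes, 42 had a probe under their own symbol among 31829 names on the array. The other 6, Orc2, Orc3, Orc4, Orc5, Orc6 and Cdc45, stood on the array under the older symbols Orc2l to Orc6l and Cdc45l, and are given separately by their RefSeq accessions.

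The RNA came from tumour-derived mouse breast cancer cells of MMTV-Neu animals, in which the oncogene Neu (also called Her2, the product of Erbb2) is expressed in the mammary epithelium from the mouse mammary tumour virus promoter. The comparison was between 2 samples labelled Pak1-/- and 2 samples labelled Pak1+/+, where Pak1 codes for a p21-activated protein kinase, and it asked which transcripts differ in cells without Pak1. Cells of both groups carried the Neu transgene, were grown in low calcium medium with 5% horse serum, were deprived of serum for 3 h and then received EGF for 15 min. According to the design text each group was drawn from 2 tumours, while the study describes the cells as cell lines, so the p-values measure the spread between these samples, part of which may be technical.

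In each cell cycle the origin recognition complex, with Cdc6 and Cdt1, loads the ring of Mcm2 to Mcm7 onto DNA before S phase, and geminin blocks a repeat of that loading. The kinase Cdc7 with its partner Dbf4 then helps to turn the loaded ring into a working helicase together with Cdc45 and the GINS complex. DNA polymerase alpha and its primase begin each strand, polymerases delta and epsilon extend it along the Pcna clamp, and Fen1, Dna2 and Lig1 join the pieces of the lagging strand. Many of these genes are known targets of E2F transcription factors, which the retinoblastoma protein holds back outside the time of DNA synthesis.

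The 4 arrays lay on 1 slide and had median spot intensities of 322 to 331 over a background of 39 to 42, with 62.2% to 70.4% of probes well above background. The 2 arrays labelled Pak1-/- took positions 1 and 2 and the others positions 3 and 4, so position and genotype cannot be told apart. The Pak1 probe (chr7:105060220-105060279, mm9) had a normalized log2 intensity of 12.21 and 12.25 where the label was Pak1-/- and of 12.04 and 12.04 where it was Pak1+/+, a difference of 0.19 (SE 0.068, limma adjusted p = 0.070). It was not lower where Pak1 was labelled as deleted, and which part of the gene was deleted is not given in the sources used here, so the groups are called by their labels. The Erbb2 probe read 11.91 and 11.95 against 12.26 and 12.21, and fell by 0.31 (SE 0.069, adjusted p = 0.020). Whether it reads the Neu transgene as well as the mouse gene was not tested.

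Nearly the whole replication machinery was lower on the arrays labelled Pak1-/-. Of the 42 genes, all of them well above background on every array, 40 (95.2%) were lower at an adjusted p under 0.05, against a background of 28.6% of the 27229 probes tested. The exceptions were Pole3, which was higher, in a direction that 23.3% of tested probes took, and Mcm10, which did not pass the test. The median log2 difference, Pak1-/- minus Pak1+/+, was -0.91 over the 42 genes and -0.052 over all tested probes. Since these were bulk samples, a smaller share of cells in S phase and less RNA of these genes in each cell cannot be told apart. The test was that of limma, with genotype alone in the model and adjustment over all tested probes.

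By size, 17 genes (40.5%) were at least 2-fold lower, against 5.6% of tested probes, a further 17 were between 1.5-fold and 2-fold lower, and 6 were lower by less than 1.5-fold. The 2 groups of arrays did not overlap for any of the 42 genes, and in 41 of them (97.6%) both Pak1-/- values lay under both Pak1+/+ values, which was so for 43.5% of tested probes. Within a group the arrays lay close together. The median gap between the Pak1-/- arrays was 0.092, against 0.11 over all tested probes, and the largest was 0.28. Between the Pak1+/+ arrays the median gap was 0.055, against 0.083 over all tested probes, and the largest was 0.23. The gaps ran mostly one way in the Pak1-/- group, where 31 of 42 genes read higher on array 2 than on array 1, compared with 50.4% of tested probes. In the Pak1+/+ group 28 of 42 genes read higher on array 1, compared with 51.0% of tested probes. Relative to each gene's own mean, the median position of the 42 genes was -0.51 and -0.42 on the Pak1-/- arrays and 0.48 and 0.43 on the Pak1+/+ arrays.

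**Figure D1:**
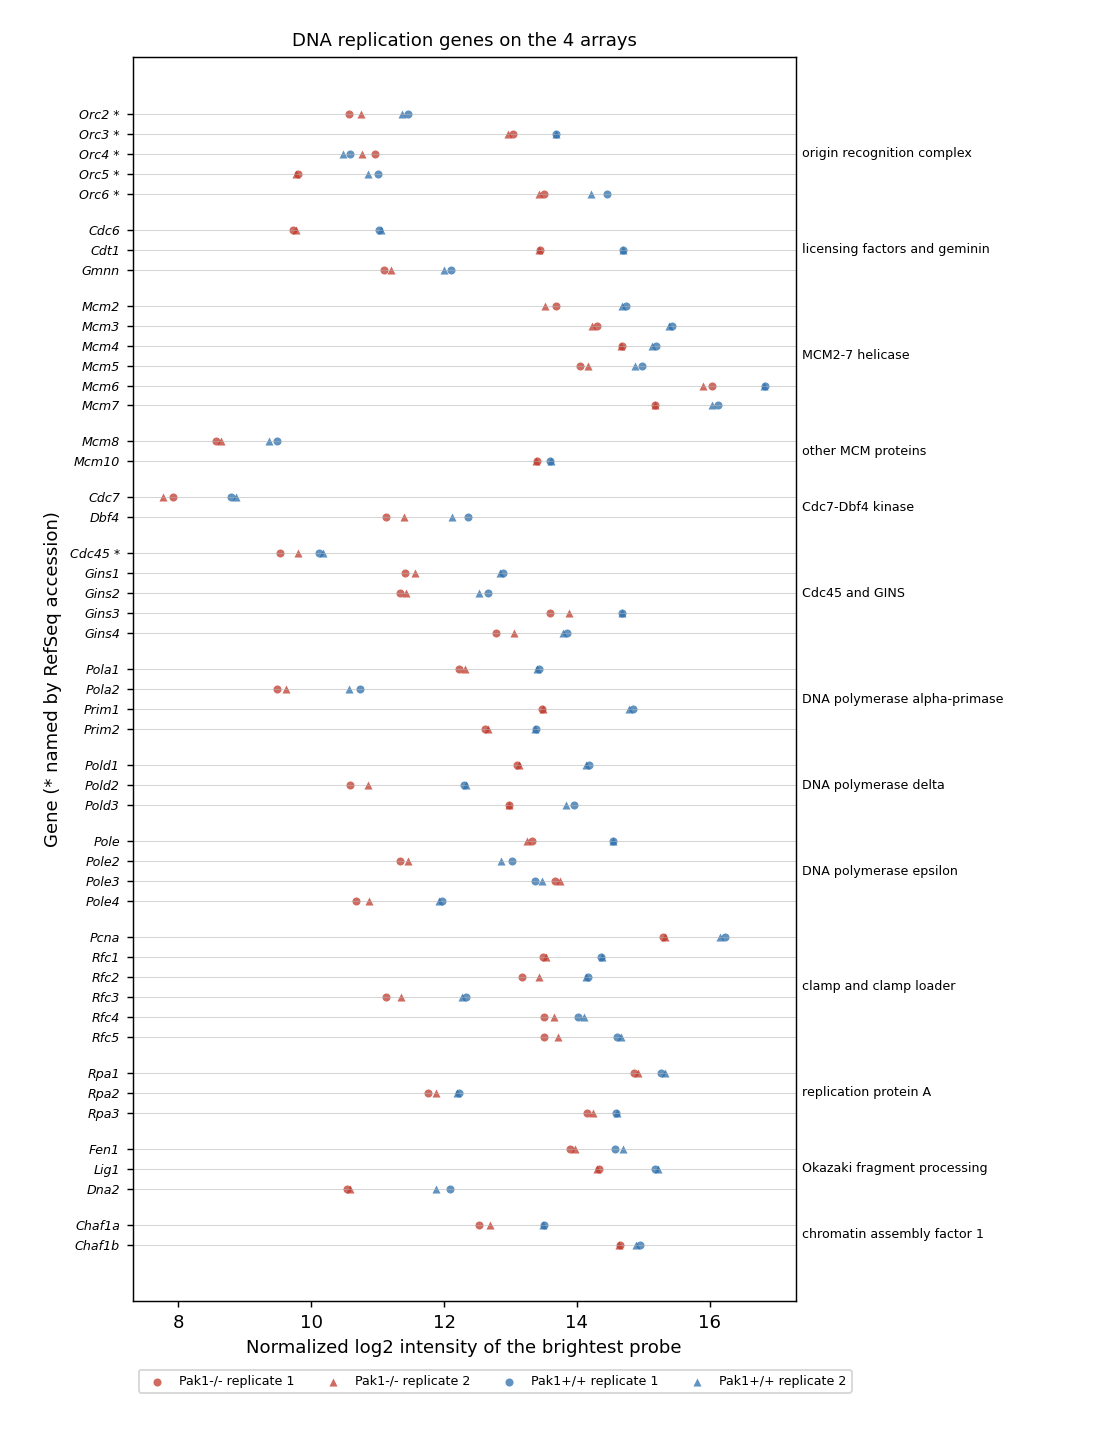
Normalized log2 intensity of the brightest probe of each replication gene (horizontal axis) on the 4 arrays, grouped by role, with circles for replicate 1 and triangles for replicate 2 and an asterisk for the 6 genes named by RefSeq accession. The red Pak1-/- points lie to the left of the blue Pak1+/+ points for all genes drawn except Pole3 and Orc4, and levels of different genes are not comparable because each probe binds with its own strength.

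Promoter sequence was looked at because E2F factors bind many genes of this group. RefSeq windows of 300 bases (250 before and 50 after a start site, GRCm38.p6) were at hand for 40 of the 48 genes, and were searched on both strands for the E2F letters TTTCCCGC, TTTGGCGC, TTTCGCGC and TTTGCCGC, of which neighbouring matches may overlap. Of the 40 genes, 16 (40.0%) held a match in at least one window, compared with 704 of 27025 genes with a window (2.605%) and 513 of 12586 genes with a tested probe (4.076%). The members' windows were also richer in G and C, with a median of 63.0% against 59.33% for the genes with a tested probe. The 16 genes were Cdc6, Cdt1, Gins3, Lig1, Mcm3, Mcm5, Mcm6, Mcm7, Mcm8, Orc3, Pola1, Pold1, Pold3, Pole2, Pole4 and Rfc3. The 160 bases just before the start site are shown for 5 genes that were lower and have a match there. They are a loading factor, a pair of ring subunits, a GINS subunit and a polymerase subunit. The same stretch is shown for Pole3, which was higher and has no match in its whole window. These 5 do not represent all lower genes, as 21 of the 37 lower members with a window, among them Mcm2, Prim1, Dna2 and Pcna, held no match. The call of Pole3 was lost in 10 of 13 alternatives. Whether the letters go with the direction of change was not tested. Each sequence runs 5′ to 3′ on the gene's own strand, and capitals mark the E2F letters.
Cdc6 (chr11:98907991-98908150, plus strand): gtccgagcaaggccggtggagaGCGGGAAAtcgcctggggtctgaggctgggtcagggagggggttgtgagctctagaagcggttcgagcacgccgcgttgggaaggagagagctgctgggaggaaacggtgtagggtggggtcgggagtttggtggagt
Mcm5 (chr8:75109349-75109508, plus strand): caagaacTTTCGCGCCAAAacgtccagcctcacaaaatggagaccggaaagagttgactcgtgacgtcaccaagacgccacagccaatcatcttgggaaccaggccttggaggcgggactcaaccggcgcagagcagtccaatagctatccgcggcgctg
Mcm6 (chr1:128359706-128359865, minus strand): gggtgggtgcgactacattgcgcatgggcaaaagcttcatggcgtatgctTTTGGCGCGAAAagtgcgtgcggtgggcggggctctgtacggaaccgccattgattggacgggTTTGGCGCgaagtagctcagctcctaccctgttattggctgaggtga
Gins3 (chr8:95633399-95633558, plus strand): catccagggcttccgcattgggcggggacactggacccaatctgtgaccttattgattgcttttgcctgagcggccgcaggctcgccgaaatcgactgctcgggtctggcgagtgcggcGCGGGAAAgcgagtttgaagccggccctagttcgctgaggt
Pola1 (chrX:93632156-93632315, minus strand): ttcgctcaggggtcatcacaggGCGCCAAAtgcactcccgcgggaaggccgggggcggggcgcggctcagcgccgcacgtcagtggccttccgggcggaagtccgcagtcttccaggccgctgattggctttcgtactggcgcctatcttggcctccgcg
Pole3 (chr4:62525015-62525174, minus strand): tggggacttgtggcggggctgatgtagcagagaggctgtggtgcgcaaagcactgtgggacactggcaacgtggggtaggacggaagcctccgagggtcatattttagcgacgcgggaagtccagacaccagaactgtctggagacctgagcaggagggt

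In Mcm5 and in Mcm6 a match on one strand overlaps a match on the other, so that the capitals form 1 run, and Mcm6 has a further match nearer its start site. Among the 37 members that were lower and have a window, those found by accession included, the median log2 difference was -0.99 for the 16 with E2F letters and -0.87 for the 21 without. Of those at least 2-fold lower 8 of 15 (53.3%) held the letters, and of those less than 2-fold lower 8 of 22 (36.4%). Neither difference was tested. Pold2, Dna2 and Prim1, which were among the most reduced genes, held none of these letters in their windows, and Gins1 and Pole had no window. For other letters found near cell cycle genes the members stood closer to the background, with TTTGAA in 7 of 40 (17.5%) against 15.3% of genes with a tested probe and CCAAT in 22 of 40 (55.0%) against 42.1%. A match is a description of letters and says nothing of binding in these cells.

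Among the 5 origin recognition genes in the list, Orc2 to Orc6, which were found by accession, Orc5 was the most reduced. Orc5 read 9.80 and 9.77 on the Pak1-/- arrays and 11.002 and 10.85 on the Pak1+/+ arrays, and fell by 1.14 (SE 0.083, adjusted p = 0.000823). Orc2, Orc3 and Orc6 fell by 0.75, 0.68 and 0.87 (highest adjusted p 0.00342, for Orc6), and these calls as well as that of Orc5 held under each of 12 alternatives. Orc4, another subunit of the ring that encloses origin DNA, went the other way. It read 10.96 and 10.76 against 10.58 and 10.47, a difference of 0.33 (SE 0.10, adjusted p = 0.047). That call was kept in 5 of 12 alternatives, with adjusted p from 0.024 to 0.18, and was lost without Pak1-/- array 1 (0.14), without Pak1+/+ array 1 (0.089) and without Pak1+/+ array 2 (0.18).

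The factors that load the helicase were reduced together with the protein that restrains them. Cdc6 (probe at chr11:98782986-98783045, mm9) read 9.73 and 9.77 on the Pak1-/- arrays and 11.02 and 11.04 on the Pak1+/+ arrays. It fell by 1.28 (SE 0.068, adjusted p = 0.000373), or 2.43-fold. Cdt1, the partner of Cdc6 in loading, read 13.45 and 13.43 against 14.69 and 14.70 and fell by 1.25 (SE 0.066, adjusted p = 0.000374). Gmnn, which codes for geminin, the inhibitor of Cdt1, read 11.10 and 11.21 against 12.10 and 11.99. Its fall of 0.89 (SE 0.082, adjusted p = 0.00149) was the smallest of the 3.

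All 6 subunits of the Mcm2 to Mcm7 ring were lower. Mcm3 fell most, from 15.43 and 15.39 on the Pak1+/+ arrays to 14.31 and 14.23 on the Pak1-/- arrays, by 1.14 (SE 0.072, adjusted p = 0.00057). Mcm4 fell least, reading 14.67 and 14.67 against 15.19 and 15.14, by 0.49 (SE 0.069, adjusted p = 0.00461). The subunits act as 1 ring, and the other 4 lay between, with falls of 1.11 for Mcm2, 0.82 for Mcm5, 0.86 for Mcm6 and 0.90 for Mcm7. The value of Mcm3 depended on the probe, since a second probe that overlaps the first in position fell by 0.35 (adjusted p = 0.019), and the mean of both probes gave a log2 difference of -0.75.

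Outside the ring, Mcm8, a relative of the ring subunits that is best known from recombination, read 8.56 and 8.64 against 9.48 and 9.37 and fell by 0.82 (SE 0.080, adjusted p = 0.00169). Mcm10, which is no ring subunit but helps to start the helicase, was the gene that did not pass. It read 13.39 and 13.38 on the Pak1-/- arrays and 13.59 and 13.61 on the Pak1+/+ arrays, which is -0.21 on the log2 scale (SE 0.066, adjusted p = 0.051). The groups did not overlap, and the adjusted p was 0.043 when probes had to be well above background on all 4 arrays, 0.21 under cyclic loess and 0.043 to 0.21 over all alternatives.

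The kinase that fires loaded origins was lower in both parts. Cdc7, its catalytic subunit, read 7.92 and 7.76 against 8.80 and 8.87 and fell by 0.99 (SE 0.086, adjusted p = 0.00129). This was the dimmest probe of the 42 genes, and a second probe fell by 0.55 (adjusted p = 0.00359). Dbf4, the subunit that switches Cdc7 on, read 11.13 and 11.39 against 12.35 and 12.12. It fell by 0.98 (SE 0.13, adjusted p = 0.00442), with the widest error of the 42 genes.

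The GINS complex, which joins the ring to form the working helicase, was lower in all 4 subunits. Gins1 read 11.41 and 11.57 on the Pak1-/- arrays and 12.88 and 12.85 on the Pak1+/+ arrays and fell by 1.37 (SE 0.085, adjusted p = 0.000547), or 2.59-fold. Gins2 fell by 1.21 and Gins3 by 0.95. Gins4 fell least of the 4 subunits, from 13.85 and 13.79 to 12.78 and 13.05, by 0.90 (SE 0.11, adjusted p = 0.00345). Cdc45, the third component of this helicase, found by accession, read 9.54 and 9.81 against 10.11 and 10.18. Its fall of 0.47 (SE 0.11, adjusted p = 0.024) passed in 9 of 12 alternatives and was lost without Pak1-/- array 1 (0.053), without Pak1+/+ array 1 (0.063) and without Pak1+/+ array 2 (0.089).

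The enzyme that starts new strands, DNA polymerase alpha with its primase, was lower in all 4 subunits. Prim1, which makes the RNA primer, read 13.48 and 13.48 against 14.84 and 14.78 and fell by 1.33 (SE 0.069, adjusted p = 0.000354). Its partner Prim2 read 12.61 and 12.66 against 13.38 and 13.37 and fell by 0.74 (SE 0.068, adjusted p = 0.00144). The catalytic subunit Pola1 fell by 1.14 and the accessory subunit Pola2 by 1.10.

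On the brightest probes, the largest reductions of the whole machinery were in small subunits of the polymerases that extend the strands. Pold2, which links the catalytic subunit of polymerase delta to the rest of the enzyme (probe at chr11:5773086-5773145, mm9), read 10.58 and 10.85 on the Pak1-/- arrays and 12.30 and 12.34 on the Pak1+/+ arrays. It fell by 1.60 (SE 0.11, adjusted p = 0.00073), or 3.04-fold, the largest change of the 42 genes on their brightest probes. The less bright probe of Rpa1 fell by 1.68. In the same enzyme the catalytic Pold1 fell by 1.04, and Pold3, which carries a Pcna-binding segment, fell least, from 13.96 and 13.83 to 12.97 and 12.98, by 0.92 (SE 0.077, adjusted p = 0.00118).

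In polymerase epsilon, which synthesizes the leading strand, Pole2 (probe at chr12:70307465-70308864, mm9) read 11.34 and 11.46 against 13.02 and 12.86. This subunit, which binds the catalytic one, fell by 1.54 (SE 0.093, adjusted p = 0.000518), or 2.92-fold. The catalytic Pole fell by 1.26 on its brightest probe, and its other probe was well above background on only 1 array of each group, so that no size is given for it, and the histone-fold subunit Pole4 fell by 1.18.

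Pole3 (probe at chr4:62183697-62183756, mm9), the histone-fold partner of Pole4, stood apart from the rest of the enzyme. It read 13.66 and 13.75 on the Pak1-/- arrays and 13.37 and 13.48 on the Pak1+/+ arrays, a rise of 0.28 (SE 0.080, adjusted p = 0.040). The protein also takes part in chromatin complexes outside replication. A second Pole3 probe showed a difference of 0.13 (adjusted p = 0.20). At the same threshold the call was lost in 10 of 13 alternatives, among them the omission of any 1 array, with adjusted p of 0.072 without Pak1-/- array 1, 0.12 without Pak1-/- array 2, 0.19 without Pak1+/+ array 1 and 0.084 without Pak1+/+ array 2.

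**Figure D2:**
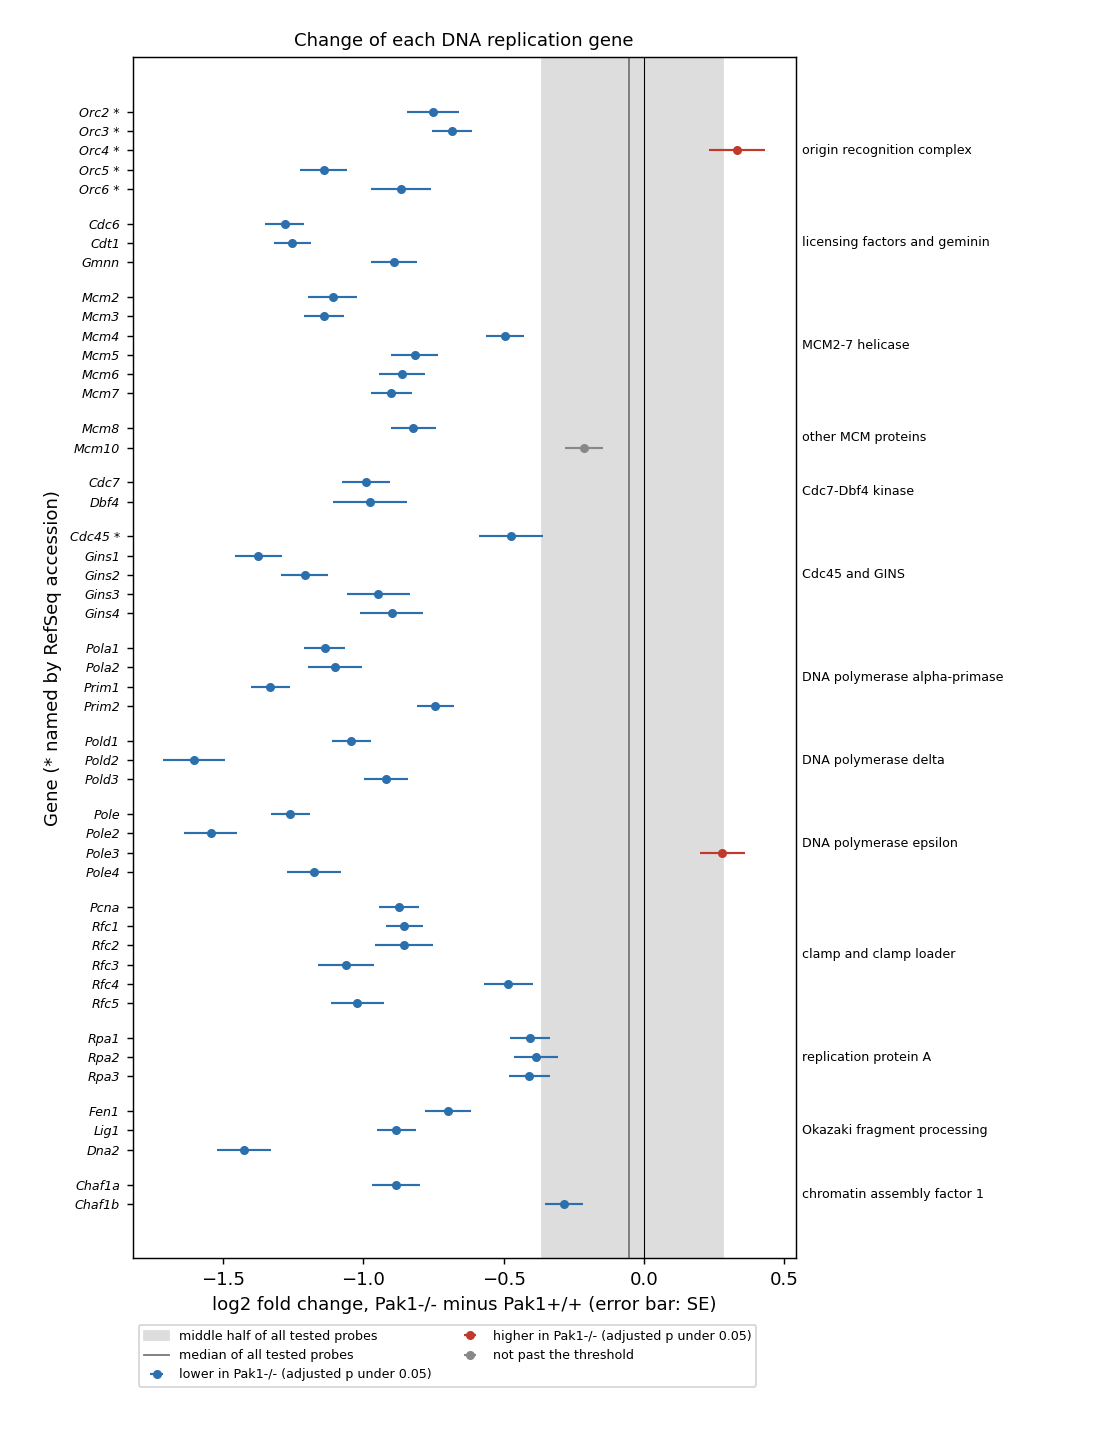
Log2 difference of each replication gene, Pak1-/- minus Pak1+/+ (points, with bars of 1 SE), grouped by role, with the middle part of all tested probes in grey and their median of -0.052 as a grey line. Pold2 and Pole2 lie farthest to the left at -1.60 and -1.54, the replication protein A genes lie near -0.4, and Orc4 and Pole3 lie to the right of 0.

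The sliding clamp and the complex that loads it were lower throughout. Pcna, the clamp, read 15.30 and 15.33 on the Pak1-/- arrays and 16.22 and 16.15 on the Pak1+/+ arrays and fell by 0.87 (SE 0.071, adjusted p = 0.00111). Among the loader subunits Rfc3 fell most, from 12.32 and 12.27 to 11.12 and 11.35, by 1.06 (SE 0.10, adjusted p = 0.00163). Rfc5, Rfc2 and Rfc1 fell by 1.02, 0.86 and 0.85. Rfc4, a small subunit of the same loader, fell least, reading 13.50 and 13.65 against 14.02 and 14.10, by 0.48 (SE 0.087, adjusted p = 0.010), and its call was lost without Pak1+/+ array 2 (adjusted p = 0.053).

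Replication protein A coats single-stranded DNA in replication as well as in repair, and its 3 genes were lower with a median log2 difference of -0.41. Rpa3 read 14.14 and 14.24 against 14.59 and 14.61 and fell by 0.41 (SE 0.073, adjusted p = 0.010). Rpa2 read 11.76 and 11.88 against 12.22 and 12.19 and fell by 0.38 (SE 0.077, adjusted p = 0.014). Rpa1, the large subunit, read 14.86 and 14.91 against 15.26 and 15.33 and fell by 0.41 (SE 0.072, adjusted p = 0.00985). For Rpa1 the choice of probe decided the size, as another probe close by fell by 1.68 (adjusted p = 0.000274). The calls of Rpa2 and Rpa3 were lost without Pak1+/+ array 1 (adjusted p = 0.072 and 0.051) and, together with that of Rpa1, without Pak1+/+ array 2 (0.060, 0.055 and 0.061).

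The enzymes that finish the lagging strand were reduced to different degrees. Dna2, a nuclease and helicase that trims long flaps (probe at chr10:62436422-62436481, mm9), read 10.54 and 10.58 against 12.09 and 11.88 and fell by 1.43 (SE 0.096, adjusted p = 0.000673), or 2.69-fold. Fen1, the nuclease for short flaps, read 13.90 and 13.97 against 14.57 and 14.70 and fell by 0.70 (SE 0.082, adjusted p = 0.00282). Lig1, which seals the nicks, lay between them with a fall of 0.88.

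Chromatin assembly factor 1 places histones on the new strands, and its subunits differed in the size of their change. Chaf1a, the large subunit, read 12.53 and 12.69 against 13.51 and 13.48 and fell by 0.88 (SE 0.086, adjusted p = 0.00172). Chaf1b read 14.64 and 14.63 against 14.95 and 14.89 and fell by 0.28 (SE 0.068, adjusted p = 0.024), the smallest fall among the genes that passed. The Chaf1b call was lost under cyclic loess (log2 difference -0.18, adjusted p = 0.082), with a replicate block (adjusted p = 0.052) and with any 1 array left out, with adjusted p of 0.067 and 0.068 without Pak1-/- array 1 or 2 and of 0.13 and 0.088 without Pak1+/+ array 1 or 2.

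Of the 42 genes, 10 had more than 1 probe, and for 9 of these all tested probes gave the same call, the exception being Pole3. The 9 include Pole, whose other probe was near background as given above. With the 6 genes found by accession, 45 of 48 (93.8%) were lower and 2 were higher, directions that 28.6% and 23.3% of tested probes took. Orc3 and Orc4 each had 2 probes by accession, and only the brighter one is given. The 42 genes lie on 15 chromosomes. No replication gene changed direction under any alternative, and 35 of the 41 genes that passed did so under each alternative that kept the threshold of 0.05.

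**Figure D3:**
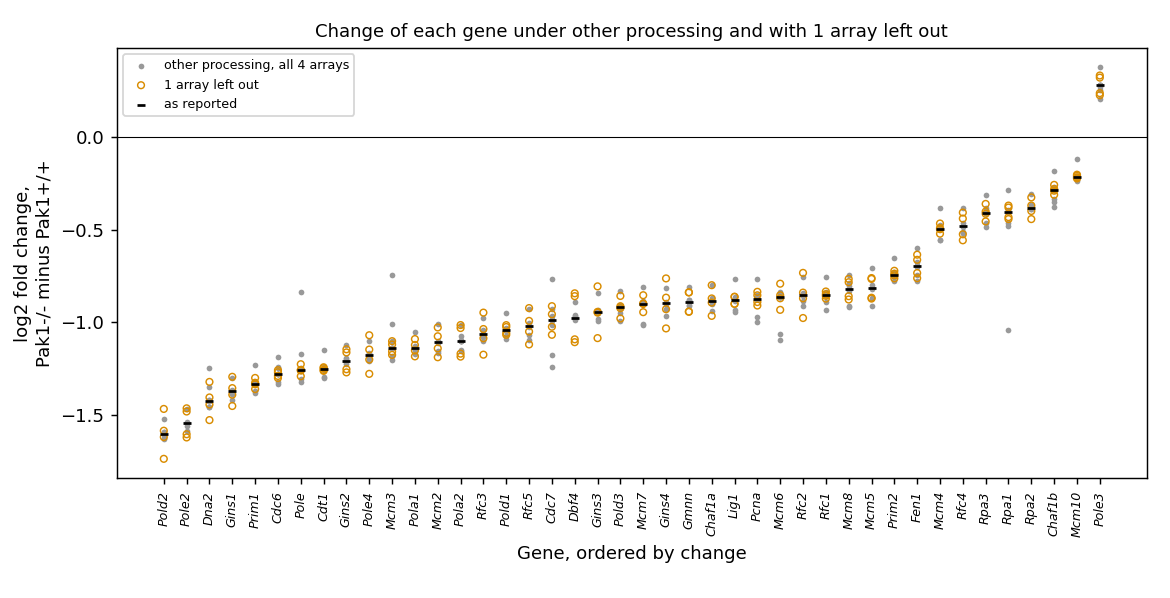
Log2 difference, Pak1-/- minus Pak1+/+ (vertical axis), of each of the 42 genes in order of size as reported (black dash), under other processing of all 4 arrays (grey points) and with 1 array left out (orange circles). The points of 41 genes stay below 0 and those of Pole3 above it, and the isolated grey points of Mcm3, Pole and Rpa1 are means over probes with unequal differences.

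Genes that work next to the replication machinery were mostly lower too. Of 30 other replication genes tested from a list of 35, 22 (73.3%) were lower and 2 (6.7%) higher, against 28.6% and 23.3% of tested probes. Their median log2 difference was -0.64. Timeless, a fork protection factor, fell by 1.22 (SE 0.086, adjusted p = 0.000747) and Atad5, which unloads the clamp, by 1.13. Chtf8, part of an alternative clamp loader, rose by 0.42 (SE 0.097, adjusted p = 0.021) and Top1, the topoisomerase that relaxes supercoils, by 0.31 (SE 0.083, adjusted p = 0.033), and the calls of both were lost with the scanner's processed signal scaled to its 75th percentile (adjusted p = 0.070 and 0.072), as was that of Top1 with a replicate block (0.053).

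Nucleotide synthesis, which feeds the polymerases, was lower in 25 of 30 genes (83.3%) and higher in 1 (3.3%), against 28.6% and 23.3% of tested probes. The median was -0.81. Rrm2, the subunit of ribonucleotide reductase that rises in S phase, read 14.99 and 15.02 on the Pak1-/- arrays and 16.95 and 16.73 on the Pak1+/+ arrays and fell by 1.84 (SE 0.10, adjusted p = 0.000401). Shmt1, an enzyme of folate metabolism, fell by 1.57, while Ctps, which makes CTP, rose by 0.48 (SE 0.13, adjusted p = 0.035), a call that was lost under the same scaling and with a replicate block. The median of each of these lists stayed below 0 under every scaling tried. Of 29 mitosis genes tested, 21 (72.4%) were lower and 0 higher, against 28.6% and 23.3% of tested probes. The median was -0.61. Under cyclic loess 2 were higher, and with a replicate block 1 was. Mad2l1 fell by 1.15 and Kif23 by 1.09, both with roles in chromosome segregation or cell division. The 2 Pak1-/- arrays stood apart in this list, as all 29 genes read higher on array 2 than on array 1, with a median gap of 0.27, compared with 50.4% of tested probes. The part of this gap in the list's lower values was not tested.

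Of 19 RB and E2F genes, 11 (57.9%) were lower and 3 (15.8%) higher, with a median of -0.40, against 28.6% and 23.3% of tested probes. Under cyclic loess 5 were higher. Rb1, which codes for the retinoblastoma protein, read 12.75 and 12.78 against 11.32 and 11.31 and rose by 1.45 (SE 0.067, adjusted p = 0.000265). E2f2, a transcriptional activator, rose by 0.75 and E2f8, a repressor of E2F targets, fell by 1.55 (SE 0.079, adjusted p = 0.000335). Foxm1, a factor of later cell cycle genes, fell by 1.32. E2f1, the best known activator of replication genes, read 12.61 and 12.77 against 12.79 and 12.85 and did not pass (log2 difference -0.13, SE 0.087, adjusted p = 0.27).

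**Figure D4:**
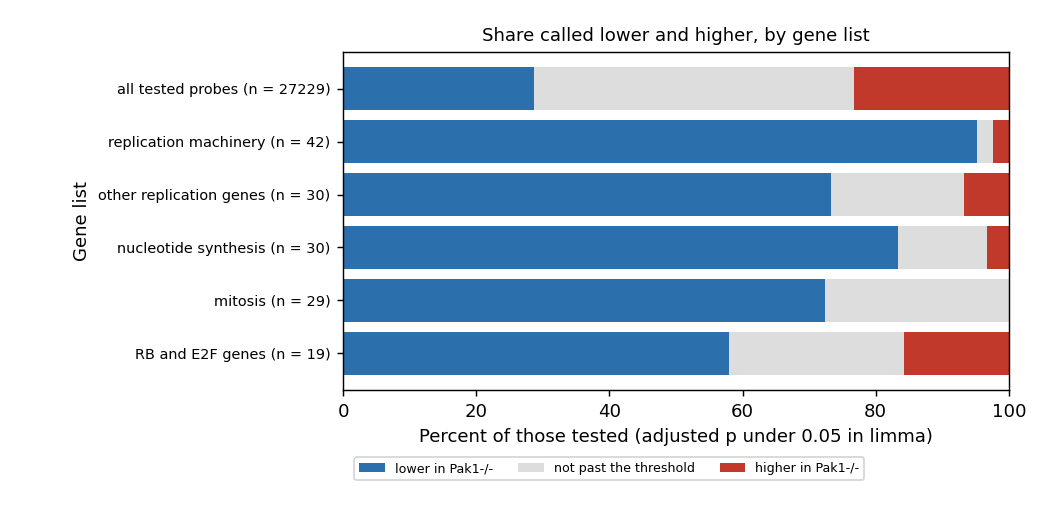
Percent of tested genes (of probes, for the top bar) called lower (blue), higher (red) or not past the threshold (grey) at a limma adjusted p under 0.05, for all tested probes and 5 gene lists. The replication machinery has 40 of 42 genes in blue, compared with 28.6% of all tested probes.

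Among the 5 lists of cell type markers, the basal epithelial one had the largest median log2 difference, 2.26. Of 8 luminal markers Cdh1, Krt8 and Krt18 were higher on the Pak1-/- arrays, in a direction that 23.3% of tested probes took, and the list had a median log2 difference of -0.075, with 4 of 8 below 0. Epcam, at -0.23 (adjusted p = 0.058), and Elf5, at -0.35 (0.058), did not pass. With normexp values scaled to the 75th percentile 2 luminal markers were higher and 3 lower. Their summed linear intensities, to which Krt8 and Krt18 gave most, were 1093380 and 1106010 against 914631 and 896586. All 6 tested basal markers of 7 were higher (Myh11 was well above background on no array), with sums of 101079 and 91098 against 19734.5 and 19259.6, and the call of Krt5 was lost with the processed signal scaled to its 75th percentile (adjusted p = 0.058). Krt17 rose by 4.92 (SE 0.18, adjusted p = 0.000152), Oxtr by 3.84, Krt14 by 2.83 and Acta2 by 1.69. Krt5 and Trp63 rose by 0.50 and 0.43. Krt17 and Krt14 are keratins of basal epithelium. Of the fibroblast markers 3 of 8 were tested, with a median log2 difference of 0.025. Col1a1 rose by 1.12, Col1a2 (0.025) and Pdgfra (-0.16) did not pass, and Col3a1, Dcn, Lum and Pdgfrb were well above background on no array. Over the 8 fibroblast markers the sums were 1375 to 1564 in Pak1-/- and 1213 to 1251 in Pak1+/+. For leukocytes 5 of 10 markers were tested, with a median log2 difference of 0.12. Ptprc fell by 0.45, Itgam (0.49), Cd3e (0.25), Csf1r (0.12) and Cd68 (-0.20) did not pass, and Cd3g and Lyz2 were well above background on no array. The sums over the list, to which Itgam gave most, were 52307 to 74999 against 43521 to 48085.5. The 4 tested endothelial markers of 5 did not pass (limma adjusted p from 0.49 to 0.98), Tek was well above background on no array, and the sums were 10047 to 10425 against 9133 to 10911.5. The part of these marker differences in the lower replication genes was not tested.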

How the data were processed

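Total RNA of 4 mouse samples was labelled with Cy3 and hybridised to single-colour Agilent mouse arrays. Per the file headers, Feature Extraction 9.5.3.1 gave the deposited linear spot intensity (mean signal, local background and a processed signal) and other values, the flags for spots well above background, saturated or outlying, with no normalization between arrays. The authors also deposited log2 values of these arrays (normexp corrected and quantile normalized, by their methods), used here as an alternative. The offset of their correction is not given in the sources used here.

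From the spot intensities, background was corrected with normexp (offset 50) and values were quantile normalized on the log2 scale in limma 3.58.1 (R 4.3.3). Control spots and spots with outlier flags were left out, and the spots of each of 39429 probes were averaged. The 27229 probes with a flag of well above background on 2 or more arrays were compared by lmFit and eBayes (two-sided, genotype only, 2 residual degrees of freedom and 2.62 prior ones), with Benjamini-Hochberg adjustment over these probes and a threshold of 0.05. The fit was tested on simulated data. The number of arrays limits the precision. Groups were taken from the labels.

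Members, their roles, the other gene lists and the markers were chosen with earlier results of these data known. In each role the genes with the largest and the smallest absolute change, and any gene called against the majority, were given array by array, and the other lists by counts with up to 2 of the largest called changes in each direction. Cdt1, Pcna, Rpa1, E2f1 and the marker genes were named after their values were seen. Probe positions are those of the array files (mm9), and promoter windows and symbols are from RefSeq (GRCm38.p6), in which 26055 of 39429 probes matched by accession. Alternatives were other background offsets, scalings and filters, the deposited log2 table, the mean over probes, naming by accession, other thresholds, a replicate block and the omission of each array.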

Additional observations from a re-analysis of the deposited data

How the results depend on the processing

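Counted over single genes and alternatives, the call was the same in 619 cases, lost in 51 and gained in 1, and the direction never turned. The number of members lower was 40 as reported, 17 when at least 2-fold was required, 36 at an adjusted p under 0.01, 39 under cyclic loess and 45 of 48 with naming by accession, and it ranged from 35 to 39 with 1 array left out. The number higher was 1 as reported, 2 with naming by accession, and 0 with no offset, either scaling to the 75th percentile, no filter on dim probes, the mean over probes, a threshold of 0.01, at least 2-fold, the deposited log2 table (in which Pole3 has no value) or the replicate block, and 0 to 0 with 1 array left out; at an unadjusted limma p under 0.05 it was 2 with naming by accession and 1 in each of the other settings except the deposited table and the omission of Pak1-/- array 2 or Pak1+/+ array 1, which gave 0. The median log2 difference moved from -0.91 to -0.996 with the processed signal scaled to the 75th percentile and ranged from -0.97 to -0.87 with 1 array left out, and the mean moved from -0.91 to -0.82 under cyclic loess and ranged from -0.95 to -0.87. Replicate numbers do not pair the samples in the labels, and the deviations of same-numbered arrays correlated at r = -0.028 over 27215 probes, which are not independent. With the replicate block 39 members were lower. Under the block the calls of Chaf1b and Pole3 were lost. With 1 array left out a group has 1 array, which is assumed to vary like the other group. With 2 arrays a group, an exact permutation test of a single gene cannot reach 0.05.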
